A study of Mus musculus with 22 samples.

Results

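The genes described here are 39 genes of nitrogen disposal and amino acid breakdown in the liver: the urea cycle enzymes, the transaminases and glutamate enzymes that feed it, the pathways that degrade tyrosine, tryptophan, histidine, proline, branched-chain amino acids and lysine, the enzymes that make serine and asparagine, and a pair of amino acid transporters. They were chosen by name, with earlier results of these data known, so their shares beside those of all features are descriptive. The array annotation had a feature for 35 of the 39, 1 feature each, among 22206 features and 19505 named genes in all. Ass1, Glud1, Gls2 and Sds were not analysed here.

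All livers came from male adiponectin global knockout mice (allele Adipoqtm1Chan, C57BL/6J background) aged 3 to 8 months, housed in groups with free chow, lights on for 12 h and off for 12 h. Expression was read on 22 Clariom S arrays, 1 per liver. This is an oligonucleotide array with a summarised value per transcript. The groups are times of day in zeitgeber time (ZT, hours after lights on): ZT2, ZT10, ZT14 and ZT22 with 4 arrays each, and ZT6 and ZT18 with 3 each. Lights were off at ZT14, ZT18 and ZT22. A letter names the array within its time, as in ZT6b. Every mouse carried the knockout. No comparison here measures an effect of adiponectin, because livers of wild-type mice were not analysed here. The labels give no age for any single mouse.

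Amino acids that are not used for protein lose their nitrogen in the liver. Transaminases move it onto glutamate and aspartate, and the urea cycle turns ammonia and aspartate nitrogen into urea, partly in mitochondria and partly in the cytosol. These enzymes are made mainly by hepatocytes near the portal vein, and many of their genes are known to respond to dietary protein, glucagon and glucocorticoids. Mice eat mostly in the dark phase.

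Values are on a log scale read as log2, on which a difference of 1 is a 2-fold change. The 35 measured genes were mostly bright: 33 had a mean above the median feature and also above the upper quartile of features, and their median mean level was 14.21, against 5.29 for all features. Phgdh (3.61) lay just under the lower quartile of an array (3.67 to 3.91), a level taken here as background. Psat1 (4.62, with arrays from 4.08 to 5.46) lay above that quartile and mostly under the array median (5.28 to 5.36). The tissue showed as liver: the mean of 7 measured hepatocyte markers, such as albumin, lay between 18.26 and 18.42 in every array. The mean of 5 measured genes of pancreatic acinar cells lay between 4.17 and 5.27. Single genes went higher at ZT2: the acinar genes Amy2a5 and Ctrb1 reached 8.01 and 6.04, and the bile duct gene Krt19 reached 6.12. Adipoq lay between 3.30 and 4.69, with a median of 3.62, and says little of the genotype because adiponectin is a fat cell product. Tff3, the gene of a trefoil factor, was high in 5 arrays: ZT6b and ZT6c (10.35 and 11.60), ZT14b and ZT14d (13.26 and 13.63), and ZT22a (11.42). It ran from 2.31 to 4.73 in the other 17. No array lay between 6 and 8, the levels that separate the sets of arrays below. Without the arrays of high Tff3, ZT6 keeps ZT6a alone and ZT14 keeps ZT14a and ZT14c. In such bulk samples fewer cells of a type and less RNA per cell cannot be told apart.

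A minority of these genes cycled through the day, and 27 of the 35 had no called rhythm. A 24 h rhythm was called for 8 of the 35 (22.9%) with limma's moderated F test on cosine and sine terms of 24 h, adjusted over all features by Benjamini-Hochberg at a threshold of 0.05, against 7.62% of all features and 13.6% of features above the median level. The fitted curves of Hal, Kynu, Amdhd1 and Slc38a2 peaked in the light phase, and those of Gpt2, Tat, Prodh and Afmid in the dark phase. In Hal and Kynu the highest time mean was that of ZT22, late in the dark, and the fitted peak fell just after lights on. The fitted spans of the 8 genes from trough to peak ran from 1.82-fold to 3.64-fold, with a median of 2.37-fold. Without the 5 arrays of high Tff3 12 genes were rhythmic (34.3%, against 5.88% of all features), 7 of the 8 among them, with Asl, Nags, Agxt, Dbt and Slc7a2 gained and Prodh lost. That fit held ZT6a alone at ZT6, so its calls rest on a single mouse there. Over all arrays the median amplitude of the 35 was 0.20 on the log2 scale, against 0.16 for all features and 0.18 for features above the median level. The test of any difference among the 6 times also called 8 (22.9%, against 6.14% of all features and 11.2% of those above the median level), with Nags in place of Prodh.

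**Figure D1:**
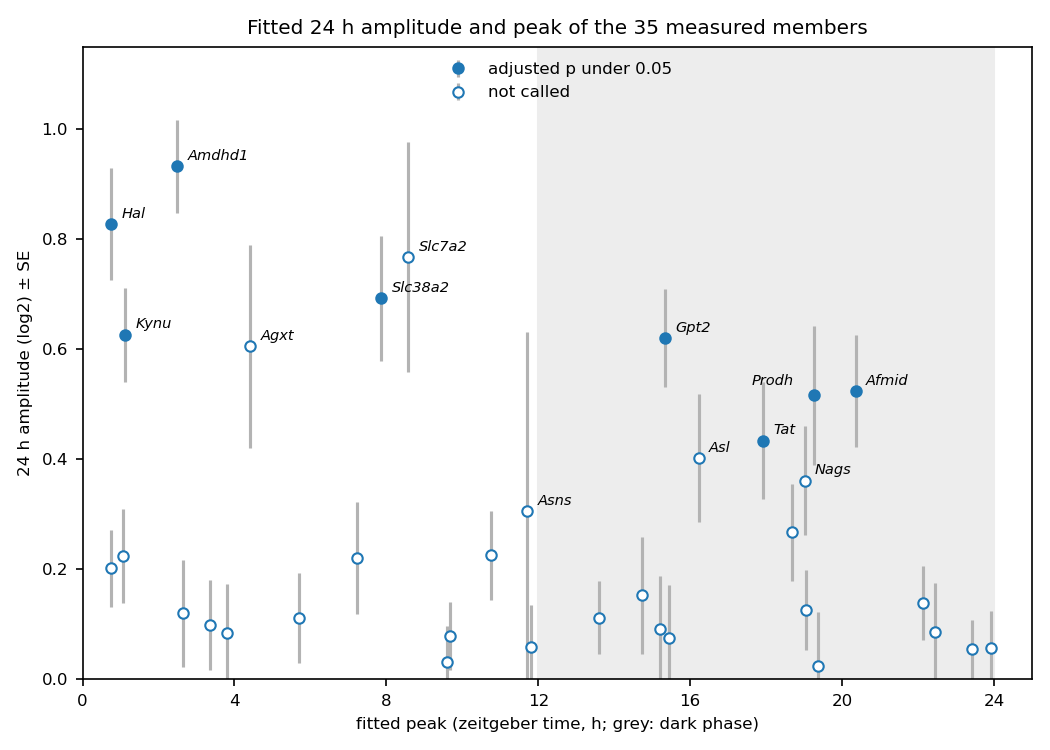
Fitted 24 h amplitude (log2, ± SE, n = 22 arrays) against fitted peak (zeitgeber time) for the 35 measured genes, filled where the rhythm was called. The 8 called genes lie at amplitudes from 0.43 to 0.93, with none of them peaking between Slc38a2 at ZT7.86 and Gpt2 at ZT15.3. The peaks of open points are less well determined, with SEs from 0.968 h in Nags to 14.1 h in Aldh4a1. Those of filled points reach 0.871 h, in Prodh.

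None of the 5 measured urea cycle genes had a called rhythm, and 1, Nags, was called in the other tests. Cps1, which condenses ammonia and bicarbonate in the first step, had values from 17.34 to 18.10 and an amplitude of 0.06 ± 0.07 (SE, n = 22). Otc, which makes citrulline in the mitochondrion, ran from 15.53 to 16.21 (amplitude 0.13 ± 0.07). Arg1, which releases urea from arginine, ran from 15.48 to 16.57 (amplitude 0.07 ± 0.10). None of these 3 was called in any of the tests (lowest adjusted p = 0.334 in limma, for Otc among the 6 times).

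Nags makes N-acetylglutamate, the activator that Cps1 requires. It measured 11.55, 11.50, 11.73 and 11.72 at ZT2, 11.52, 11.27 and 11.61 at ZT6, and 11.59, 11.16, 11.24 and 11.29 at ZT10. In the dark it measured 11.54, 12.59, 11.92 and 12.41 at ZT14, 11.80, 11.61 and 11.86 at ZT18, and 12.19, 12.32, 11.85 and 12.19 at ZT22. The 4 arrays of ZT22 lay above all 11 of the light phase, while ZT14a and ZT18b fell among them. Nags differed among the times (limma, adjusted p = 0.0259) and was 0.53 ± 0.12 (SE) log2 units higher in the dark, where the 3 time means averaged 12.00, against 11.47 in the light (adjusted p = 0.00757). It narrowly missed the rhythm call (1.65-fold span, adjusted p = 0.0557). Without the 5 arrays of high Tff3 the dark and light difference of Nags was 0.38 ± 0.13 (adjusted p = 0.118), and the test among the times gave 0.114. Asl, which splits argininosuccinate into arginine and fumarate, averaged 13.85 ± 0.43 at ZT2 (SD, n = 4) and 14.86 ± 0.18 at ZT18 (SD, n = 3), with a 1.75-fold fitted span that was not called (adjusted p = 0.0748 in limma). Without those 5 arrays Asl had a 1.94-fold span and Nags a 1.58-fold span, and both were called (adjusted p = 0.0410 and 0.0464).

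**Figure D2:**
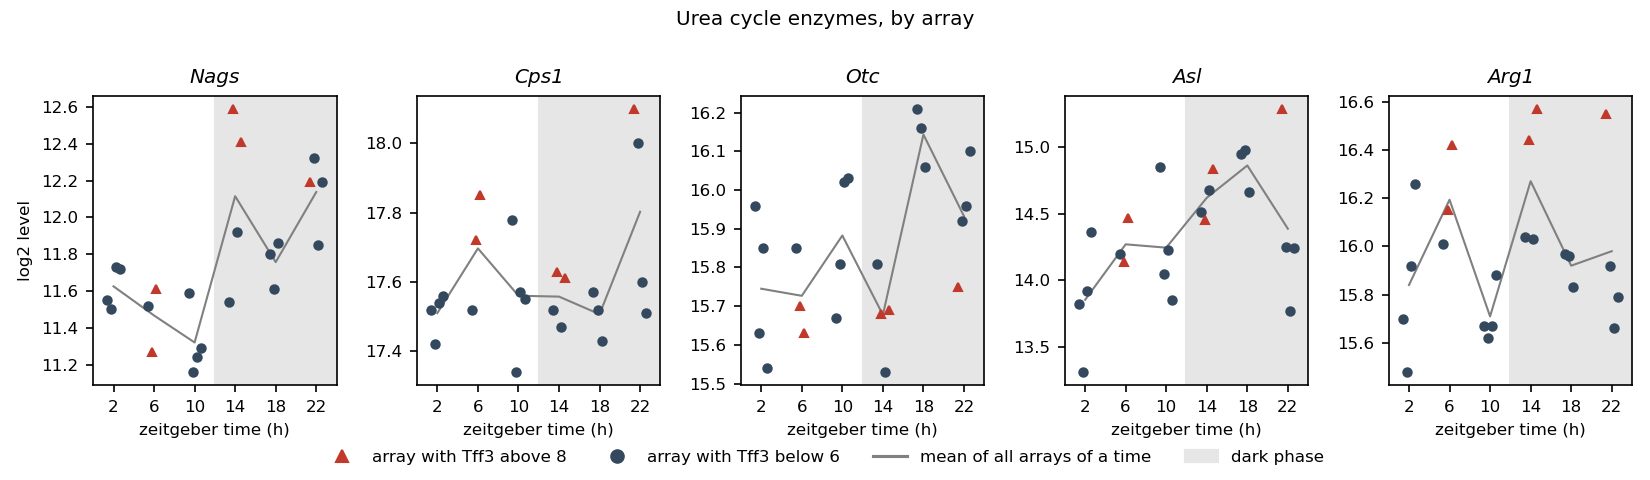
Log2 level of the 5 measured urea cycle genes in each array by zeitgeber time, with the dark phase shaded, arrays of Tff3 above 8 as triangles, the others as circles, and a line through the means of all arrays of a time. Nags is higher in the dark, and in Cps1 and Arg1 the triangles stand above the circles of their own time.

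The steps that feed nitrogen into the cycle held 1 rhythmic gene of 3. Gpt and Gpt2 encode the cytosolic and the mitochondrial alanine transaminase, which shuttle nitrogen between alanine and glutamate. Gpt2 measured 13.26, 12.94, 13.18 and 13.49 at ZT2, 13.57, 13.99 and 13.61 at ZT6, and 14.21, 13.82, 14.34 and 13.90 at ZT10. Its dark values were 14.38, 14.94, 14.30 and 14.65 at ZT14, 14.57, 14.42 and 14.29 at ZT18, and 14.53, 13.95, 13.63 and 14.04 at ZT22. Every array of ZT14 and ZT18 lay above every array of ZT2 and ZT6. The fitted curve of Gpt2 peaked at ZT15.3 ± 0.541 h (SE) with a 2.36-fold span (adjusted p = 9.67e-05 in limma), and it was 0.67 ± 0.12 higher in the dark (adjusted p = 0.00129). Its cytosolic counterpart Gpt had a 1.14-fold span that was not called (amplitude 0.09 ± 0.10), and Got2, the mitochondrial aspartate transaminase, a 1.04-fold one (0.03 ± 0.06, adjusted p = 0.953). Whether Gpt2 and Gpt differ in amplitude was not tested.

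Histidine breakdown held a pair of cycling genes beside a pair that was not called. Hal, histidine ammonia-lyase, removes the amino group of histidine to give urocanate. It measured 16.21, 15.69, 15.46 and 16.06 at ZT2, 15.36, 16.10 and 16.03 at ZT6, and 14.64, 14.53, 14.33 and 14.18 at ZT10. In the dark it measured 14.59, 14.63, 14.87 and 14.53 at ZT14, 15.16, 14.99 and 14.90 at ZT18, and 16.59, 16.17, 15.84 and 15.54 at ZT22. All arrays of ZT10, ZT14 and ZT18 lay below all arrays of the other 3 times. The fitted peak of Hal was at ZT0.747 ± 0.512 h with a 3.15-fold span (adjusted p = 1.10e-05 in limma).

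Amdhd1, imidazolonepropionase, acts 2 steps later. It measured 13.16, 12.87, 12.82 and 13.21 at ZT2, 12.71, 13.20 and 13.46 at ZT6, and 12.30, 12.02, 12.01 and 12.08 at ZT10. Its dark values were 11.23, 11.34, 11.50 and 11.32 at ZT14, 11.67, 11.95 and 11.62 at ZT18, and 13.03, 12.89, 13.16 and 12.92 at ZT22. No array of ZT14 or ZT18 reached the level of any array of the other 4 times, and the ZT22 arrays were again as high as those of ZT2. Amdhd1 had the largest fitted span of the 35 genes, 3.64-fold with a peak at ZT2.50 ± 0.356 h (adjusted p = 6.77e-08 in limma). It was lower in the dark by 0.72 on the log2 scale (difference -0.72 ± 0.10, adjusted p = 1.14e-04), with dark time means averaging 12.03 and light ones 12.75. That dark and light call of Amdhd1 was not made with ranks (adjusted p = 0.152) or with dark and light as 2 plain groups (-0.66, adjusted p = 0.166). Hal had no such call (-0.13 ± 0.13, adjusted p = 0.650), since its ZT10 values were low and its ZT22 values high. Between them in the pathway stands Uroc1, urocanate hydratase, with a 1.12-fold span (adjusted p = 0.827). Ftcd, which passes the formimino group to folate, had a 1.36-fold span, and its rhythm was not called either (adjusted p = 0.223).

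Hal and Amdhd1 are neighbours on chromosome 10 in the RefSeq annotation (GRCm38.p6), on opposite strands with their ends facing each other, 6.576 kb apart with 0 genes between. Their starts lie 51.27 kb apart. The 250 bases before each start are shown because both genes cycled and both were low from ZT10 to ZT18. Within that stretch the lowest time mean of Hal was at ZT10 (14.42) and that of Amdhd1 at ZT14 (11.35). Capitals mark CCAAT and TATAAA on either strand, which Hal has at 64 to 60 and, as its reverse complement, at 28 to 23 bases before the start. Amdhd1 has neither. The sequences are RefSeq's, 5′ to 3′ toward the gene, for Hal at chr10:93488518-93488767 on the plus strand and for Amdhd1 at chr10:93540034-93540283 on the minus strand.
Hal: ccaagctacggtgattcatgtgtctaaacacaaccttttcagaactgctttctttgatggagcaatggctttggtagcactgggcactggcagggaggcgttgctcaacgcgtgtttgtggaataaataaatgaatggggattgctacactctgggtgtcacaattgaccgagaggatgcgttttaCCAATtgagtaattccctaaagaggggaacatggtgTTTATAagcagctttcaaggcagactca
Amdhd1: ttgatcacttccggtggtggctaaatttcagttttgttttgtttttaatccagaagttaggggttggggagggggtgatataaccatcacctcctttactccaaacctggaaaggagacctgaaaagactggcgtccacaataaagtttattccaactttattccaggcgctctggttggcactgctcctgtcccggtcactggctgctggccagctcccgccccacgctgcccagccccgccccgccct

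Such windows were searched for 28 of the 35 genes, 7 of the 8 rhythmic ones among them, on both strands. CCAAT stood in 33.8% of all 32851 windows and in 12 of the 28 genes, and TATAAA in 12.4% and in 6. Of motifs bound by clock factors, the E-box CACGTG stood in 6.02% of windows, the D-box TTATGTAA in 0.819%, and TAGGTCA, a core bound by REV-ERB and ROR receptors, in 2.23%. Among the 28 genes 0 had the E-box or the D-box in this window, and Aass alone had TAGGTCA. A motif outside these 250 bases was not looked for.

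Tryptophan breakdown along the kynurenine route held 2 rhythmic genes of 5, with fitted peaks on either side of lights on. Kynu, kynureninase, which releases alanine from kynurenines, measured 14.85, 14.35, 14.71 and 14.90 at ZT2, 14.45, 14.67 and 14.49 at ZT6, and 13.69, 13.48, 14.01 and 14.01 at ZT10. In the dark it measured 13.53, 13.93, 13.13 and 13.90 at ZT14, 14.12, 14.10 and 13.75 at ZT18, and 15.34, 14.65, 14.48 and 14.72 at ZT22. As in Hal, every array of ZT10, ZT14 and ZT18 lay below every array of the other 3 times. The fitted peak of Kynu was at ZT1.11 ± 0.562 h with a 2.38-fold span (adjusted p = 4.93e-05 in limma).

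Afmid, the formamidase that makes kynurenine, measured 12.16, 12.67, 12.76 and 12.64 at ZT2, 12.44, 12.64 and 13.05 at ZT6, and 12.15, 11.92, 12.43 and 12.68 at ZT10. Its dark values were 12.63, 12.83, 12.50 and 12.66 at ZT14, 13.32, 13.54 and 13.06 at ZT18, and 13.85, 13.24, 13.04 and 13.64 at ZT22. The arrays of ZT18 and ZT22 lay above all of the earlier times except ZT6c, which reached 13.05. The peak of Afmid was at ZT20.4 ± 0.717 h with a 2.07-fold span (adjusted p = 0.00345), and it was 0.61 ± 0.13 higher in the dark (adjusted p = 0.00428), a call not made with ranks (0.0689). Tdo2, the dioxygenase that commits tryptophan to this route, ran between 17.45 and 18.07 (1.12-fold, adjusted p = 0.715). Neither Kmo, the kynurenine hydroxylase (1.13-fold, adjusted p = 0.826), nor Haao, which opens the ring of hydroxyanthranilate (1.32-fold, adjusted p = 0.168), was called.

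Of the 5 tyrosine genes, the first in the pathway was called. Tat, tyrosine aminotransferase, long known to be induced by glucocorticoids, measured 17.96, 17.90, 17.96 and 17.71 at ZT2, 18.03, 17.85 and 18.43 at ZT6, and 17.89, 17.32, 18.01 and 17.78 at ZT10. Its dark values were 18.19, 18.96, 18.07 and 19.04 at ZT14, 18.61, 18.91 and 18.47 at ZT18, and 18.69, 18.20, 18.12 and 18.57 at ZT22. All 11 dark values exceeded the light ones apart from ZT6c at 18.43. Tat peaked at ZT17.9 ± 0.855 h with a 1.82-fold span (adjusted p = 0.0275 in limma) and was 0.63 ± 0.13 higher in the dark (adjusted p = 0.00584), with dark time means averaging 18.54 and light ones 17.91. The rhythm was not called without ZT18b (adjusted p = 0.0711), and without the 5 arrays of high Tff3 it was (0.0152), while the dark difference became 0.48 ± 0.14 (0.0684). The later enzymes Hpd, Hgd, Gstz1 and Fah had spans from 1.08-fold in Hpd to 1.21-fold in Gstz1, none of them called (lowest adjusted p = 0.399). Hpd, which makes homogentisate, was the brightest of the 35 genes, and its arrays lay between 18.85 and 19.32.

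**Figure D3:**
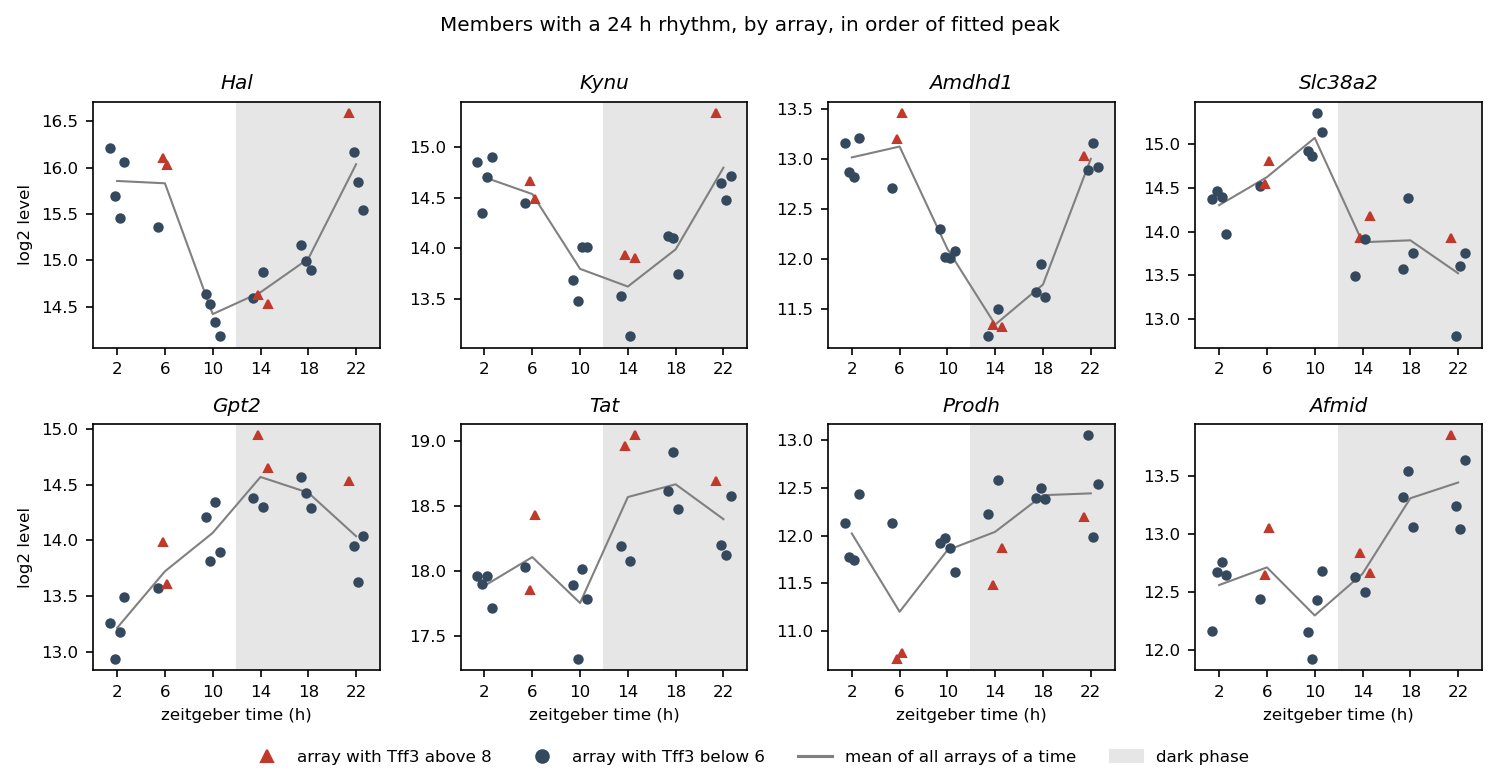
Log2 level of the 8 rhythmic genes in each array by zeitgeber time, in order of fitted peak, with the dark phase shaded, arrays of Tff3 above 8 as triangles, the others as circles, and a line through the means of all arrays of a time. Hal, Kynu and Amdhd1 share low values from ZT10 to ZT18, Slc38a2 is highest at ZT10, and in Prodh the ZT6 mean rests on 2 triangles near 10.7.

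Proline breakdown starts with Prodh, proline dehydrogenase. It measured 12.13, 11.78, 11.74 and 12.44 at ZT2, 12.13, 10.71 and 10.77 at ZT6, and 11.92, 11.98, 11.87 and 11.62 at ZT10. Its dark values were 12.23, 11.48, 12.58 and 11.87 at ZT14, 12.39, 12.50 and 12.38 at ZT18, and 12.19, 13.05, 11.99 and 12.54 at ZT22. The low ZT6 mean comes from ZT6b and ZT6c, both of high Tff3, and dark and light values otherwise overlap. The rhythm of Prodh (2.05-fold, ZT19.3, adjusted p = 0.0272 in limma) was not called without ZT6b (0.0729), ZT6c (0.0700) or ZT22b (0.0532), nor without the 5 arrays of high Tff3 (1.63-fold, 0.119). The same arrays ended its dark and light call, 0.61 ± 0.17 over all arrays (adjusted p = 0.0353) and 0.45 ± 0.16 without them (0.147). With quantile normalization or with ranks the rhythm of Prodh was not called either (adjusted p = 0.0799 in limma for each). Aldh4a1, which finishes the conversion to glutamate, had a 1.03-fold span (adjusted p = 0.988).

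Of the 2 amino acid transporters, 1 was called. Slc38a2, the sodium-coupled neutral amino acid transporter SNAT2, measured 14.37, 14.47, 14.40 and 13.97 at ZT2, 14.52, 14.54 and 14.81 at ZT6, and 14.92, 14.87, 15.36 and 15.14 at ZT10. Its dark values were 13.49, 13.93, 13.91 and 14.18 at ZT14, 13.57, 14.38 and 13.75 at ZT18, and 13.93, 12.80, 13.61 and 13.75 at ZT22. All arrays of ZT10 lay above those of the other 5 times, and no dark array reached the lowest ZT6 array. The peak of Slc38a2 was at ZT7.86 ± 0.596 h with a 2.61-fold span (adjusted p = 5.64e-04 in limma), and it was lower in the dark (-0.90 ± 0.14, adjusted p = 2.58e-04). Slc7a2, the cationic amino acid transporter CAT2 that carries arginine and ornithine, spanned 2.90-fold around a fitted peak at ZT8.58 ± 1.02 h and narrowly missed the call (adjusted p = 0.0534). Its values at ZT14 were 15.64 and 15.92 in the 2 arrays of high Tff3, against 13.83 and 13.14 in the others. Without the 5 arrays of high Tff3 Slc7a2 was called in all 3 tests, with a 3.60-fold span (adjusted p = 0.00220) and a dark minus light difference of -1.27 ± 0.20 (adjusted p = 0.00120).

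Neither the serine and asparagine enzymes nor the branched-chain and lysine enzymes held a rhythmic gene, with 0 of 4 and 0 of 4 called, and 0 and 2 at an unadjusted p under 0.05. Psph, the last step of serine synthesis, had a 1.36-fold span (adjusted p = 0.364 in limma), and Phgdh and Psat1, which precede it, were low and not called. Of the branched-chain ketoacid dehydrogenase, the subunits Bckdha and Bckdhb had spans of 1.17-fold and 1.37-fold that were not called (adjusted p = 0.692 and 0.194). Dbt, its transacylase core, was 0.41 ± 0.10 higher in the dark (adjusted p = 0.0196), with dark time means averaging 12.11 and light ones 11.70. That call of Dbt was not made without the 5 arrays of high Tff3 (0.40 ± 0.12, adjusted p = 0.0856), where its rhythm was (1.60-fold, 0.0444). Aass, the first enzyme of lysine breakdown, was not called (1.18-fold, adjusted p = 0.737). Agxt, which turns glyoxylate and alanine into glycine and pyruvate, is described with the arrays of high Tff3.

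Between the phases, 6 of the 35 genes were higher in the dark (17.1%, against 3.25% of all features and 6.05% of those above the median level) and 2 were lower (5.71%, against 2.02% and 3.2%). Those higher were Gpt2, Tat, Afmid, Prodh, Nags and Dbt, with differences from 0.41 in Dbt to 0.67 in Gpt2. Those lower were Amdhd1 and Slc38a2. Over all 3 tests 10 genes were called in at least 1 (28.6%, against 10% of all features and 17.5% of those above the median level). In all 3 tests 5 genes were called (14.3%, against 2.66% and 4.97%), and 25 were called in none. With the 5 arrays of high Tff3 left out, the ZT6 mean, 1 of 3 in the light, is ZT6a alone. Without the 5 arrays of high Tff3 the counts were 2 higher (Gpt2 and Afmid, with 1.59% of all features) and 4 lower (Amdhd1, Slc38a2, Agxt and Slc7a2, with 1.19%).

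**Figure D4:**
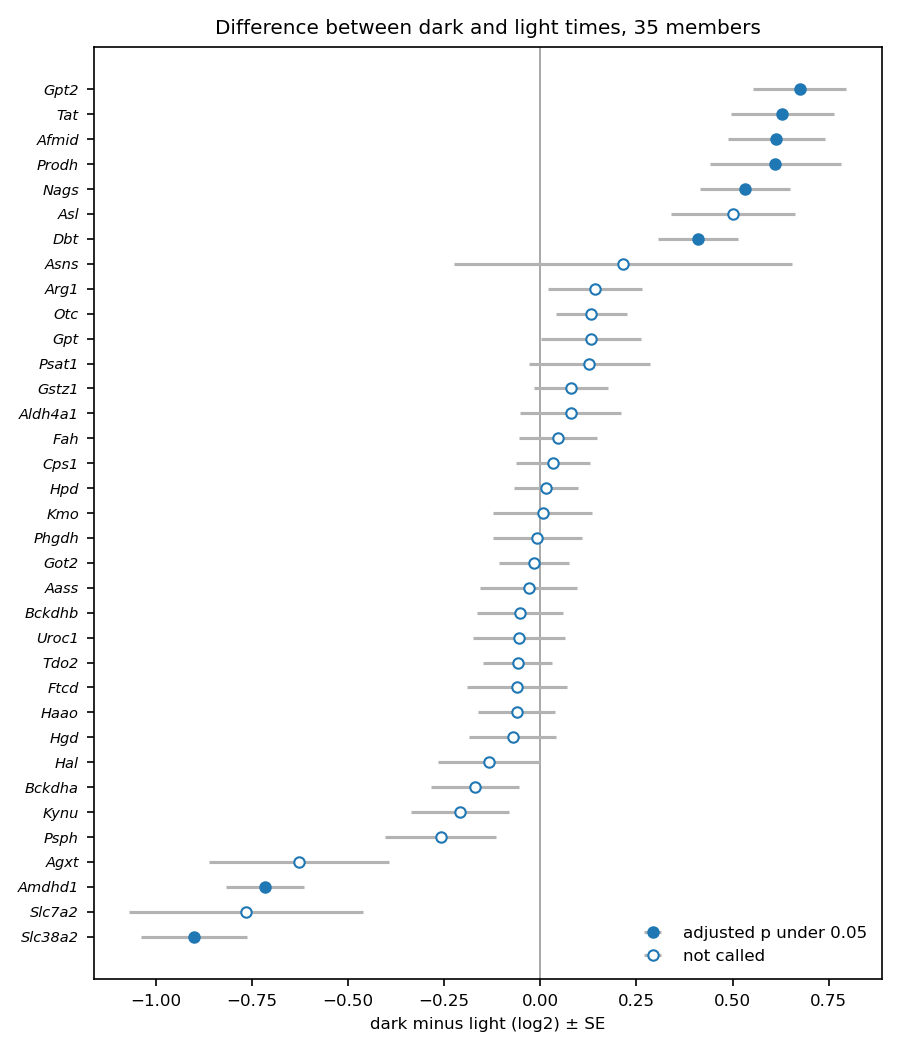
Mean of the dark times minus mean of the light times (log2, ± SE from limma, n = 22 arrays) for each of the 35 genes, filled where called. The 6 genes called higher lie between 0.41 and 0.67, and Amdhd1 and Slc38a2 are called lower at -0.72 and -0.90.

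Several of the 35 genes were set apart in the arrays of high Tff3. In 13 of the 35 genes (37.1%) the arrays of Tff3 above 8 all lay higher than every other array of their own time, against 4.76% of all features and 7.92% of features above the median level. They were Cps1, Arg1, Gpt2, Hgd, Afmid, Kynu, Uroc1, Aldh4a1, Agxt, Asns, Dbt, Aass and Slc38a2. Kmo lay lower in all 5 (1 gene, 2.86%, against 3.64% of all features and 3.9% of those above the median level). The arrays were picked by their Tff3 level, and those of high Tff3 fell at ZT6, ZT14 and ZT22. The gene list was drawn up with this in view, so these counts are no test. In most of these genes the nearest arrays of the 2 sets were close, and 2 genes, Asns and Agxt, stood apart by more than 0.5 log2 units at each of the 3 times.

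Asns, asparagine synthetase, moves nitrogen from glutamine to aspartate. It measured 9.96 and 10.65 in the ZT6 arrays of high Tff3, against 7.79 in the other ZT6 array. At ZT14 it measured 10.69 and 10.71 in those of high Tff3, against 8.09 and 7.73 in the others. At ZT22 it measured 10.64 in ZT22a, against 7.58, 8.17 and 7.50 in the others. Across all times the 5 arrays ran from 9.96 to 10.71, and the other 17 from 6.90 to 9.30 with a median of 7.73, without overlap. The highest of the 17 was ZT18a. By time of day Asns was not called in any test (rhythm adjusted p = 0.837 over all 22 arrays and 0.902 over the 17).

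Asns is a known target of ATF4, the transcription factor of the amino acid response, through a C/EBP-ATF response element. Its promoter is shown because that element's core TGATGNAA, in capitals, stands in it as TGATGAAA 23 to 16 bases before the RefSeq start. The window is chr6:7693210-7693459 (GRCm38.p6, minus strand, RefSeq, 5′ to 3′ toward the gene).
Asns: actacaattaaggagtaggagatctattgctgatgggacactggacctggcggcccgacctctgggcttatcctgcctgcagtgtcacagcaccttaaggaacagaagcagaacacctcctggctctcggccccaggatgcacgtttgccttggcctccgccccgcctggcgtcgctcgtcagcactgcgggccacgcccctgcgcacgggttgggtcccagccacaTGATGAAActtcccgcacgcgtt

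The core stood in 3.45% of all windows and, of the 28 genes searched, in Asns alone. The mRNA of Atf4 itself overlapped between the sets of arrays at some time and had no called rhythm (1.43-fold, adjusted p = 0.199 in limma). Of other genes known as ATF4 targets, Chac1 lay higher in all 5 arrays than in the others of their own time, at a low level (mean 4.18). Its highest time mean was at ZT10 (4.835), where no array was of high Tff3. Ddit3, Trib3, Sesn2, Psat1 and Phgdh overlapped. Of these, Sesn2 (mean 3.14) and Phgdh (3.61) lay at the level taken as background, and Psat1 (4.62) was low. Slc38a2 and Gpt2, also reported as ATF4 targets, are among the 13 genes above that lay higher. Their nearest arrays of the 2 sets were 0.02 and 0.04 apart. A part of ATF4 in these levels was not tested.

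Agxt, alanine-glyoxylate aminotransferase, measured 13.13 and 13.06 in the ZT6 arrays of high Tff3, against 11.61 in the other. At ZT14 it measured 12.24 and 12.17 in those of high Tff3, against 11.01 and 10.33 in the others. At ZT22 it measured 12.57 in ZT22a, against 11.79, 10.88 and 10.86 in the others. The 5 arrays ran from 12.17 to 13.13 and the other 17 from 10.33 to 12.06, again without overlap. Over all arrays Agxt missed the rhythm call (2.31-fold, adjusted p = 0.0958 in limma). Over the 17 it was called (2.38-fold, peak at ZT3.55, adjusted p = 0.00179), with a dark minus light difference of -0.67 ± 0.17 (adjusted p = 0.0338).

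**Figure D5:**
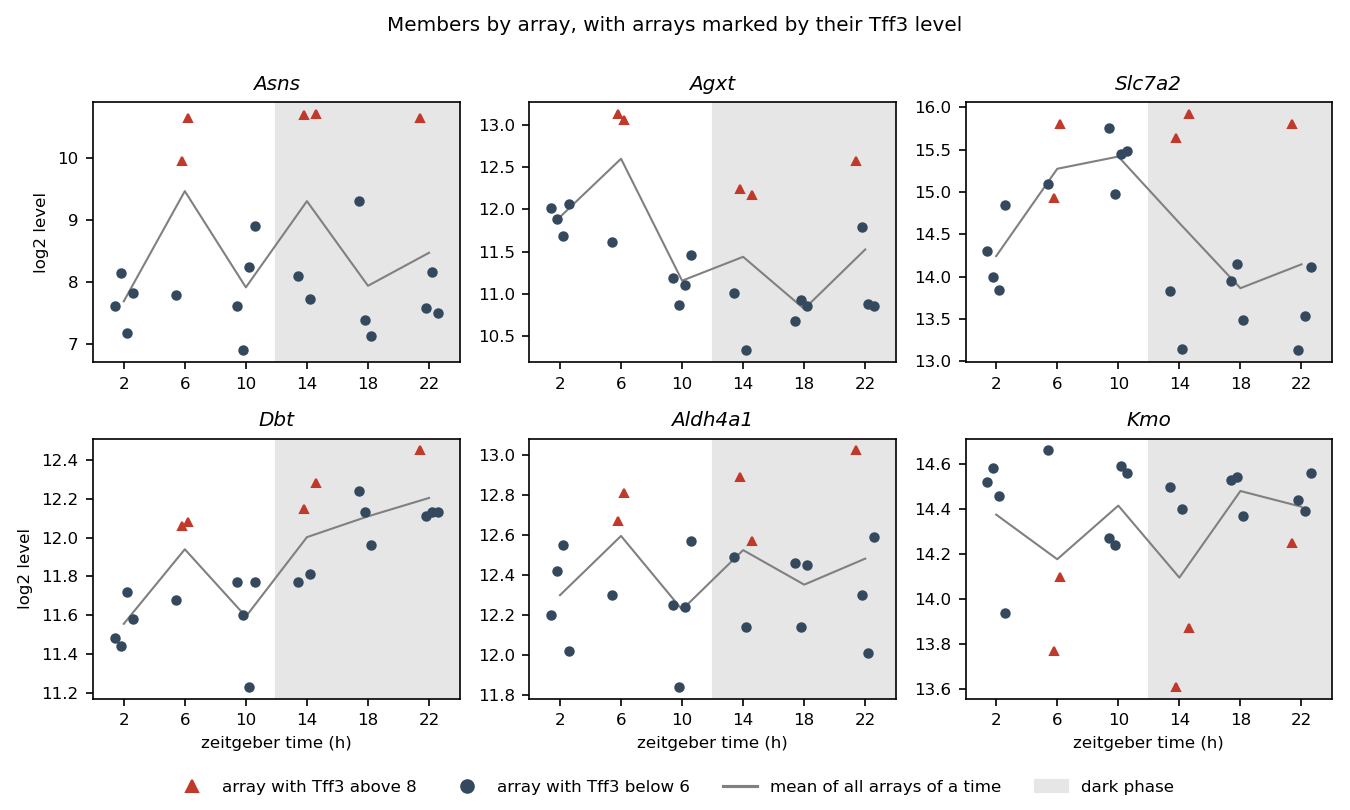
Log2 level of 6 genes in each array by zeitgeber time, with arrays of Tff3 above 8 as triangles, the others as circles, the dark phase shaded and a line through the means of all arrays of a time. In Asns and Agxt the triangles stand above every circle, in Dbt and Aldh4a1 above those of their own time, in Slc7a2 likewise at ZT14 and ZT22 alone, and in Kmo below those of their own time.

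In the urea cycle, Arg1 measured 16.15 and 16.42 in the ZT6 arrays of high Tff3, against 16.01 in the other. It measured 16.44 and 16.57 in those at ZT14, against 16.04 and 16.03, and 16.55 in ZT22a, against 15.92, 15.66 and 15.79 in the others. For Cps1 the nearest arrays were 0.09 apart at ZT14 and 0.10 apart at ZT22. Kmo measured 13.77 and 14.10 in the ZT6 arrays of high Tff3, against 14.66 in the other, and 13.61 and 13.87 at ZT14, against 14.50 and 14.40. At ZT22 it measured 14.25 in ZT22a, against 14.44, 14.39 and 14.56 in the others.

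Other genes moved with the same arrays. Of 7 measured periportal markers 3 lay higher in all 5 arrays (Cps1 itself, Hsd17b13 and Pck1) and 0 lower. Those higher were 42.9% of the list, against 4.76% of all features and 7.92% of features above the median level. The list's mean ran from 16.06 to 16.57 in the 5 arrays and from 15.41 to 16.13 in the other 17. Of 7 pericentral markers 0 lay higher and 2 lower (Cyp1a2 and Cyp2e1), or 28.6%, against 3.64% of all features. Their list means ran from 12.24 to 13.18 and from 12.44 to 13.31. Of 43 measured markers of Kupffer cells, endothelium, stellate cells, bile duct, leukocytes, adipocytes, acinar and erythroid cells 8 lay higher (18.6%, against 4.76% of all features) and 1 lower (2.33%, against 3.64%). The means of 6 Kupffer cell markers ran from 7.04 to 7.32 in the 5 arrays and from 6.72 to 7.67 in the others, and those of 6 sinusoidal endothelial markers from 9.18 to 9.72 and from 8.82 to 9.75. The part of these cells in the levels of the amino acid genes was not tested.

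Other genes of the same pathways, 61 by a list drawn up beside the 39, were read in the same way. Of 54 measured, 11 were rhythmic (20.4%, against 7.62% of all features and 13.6% of those above the median level). Of these 54, 5 were higher and 3 lower in the dark. The shares were 3.25% and 2.02% of all features, and 6.05% and 3.2% of those above the median level. In all 5 arrays of high Tff3, 6 lay higher (11.1%, against 4.76% of all features and 7.92% of those above the median level). There 4 lay lower (7.41%, against 3.64% and 3.9%). The list of glycine, serine and threonine genes held 5 of the 11, among 11 measured. Amt, the aminomethyltransferase of the glycine cleavage system, peaked at ZT2.24 ± 0.317 h and spanned 3.53-fold (adjusted p = 5.90e-09 in limma). Its partner Gldc, the decarboxylase of that system, peaked at ZT22.5 (3.03-fold, 0.00121), and the hydroxymethyltransferase Shmt1 at ZT20.8 (2.10-fold, 0.00220). Dmgdh (1.69-fold) and Agxt2, a second alanine-glyoxylate aminotransferase, were also called.

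Ppm1k, the phosphatase that activates the branched-chain dehydrogenase, was the 1 called gene of 16 in branched-chain and propionate breakdown, at ZT3.02 with a 2.66-fold span (adjusted p = 0.00179 in limma). Ido2, a dioxygenase of tryptophan (2.73-fold, ZT21.3), and Qdpr, which regenerates the cofactor of phenylalanine hydroxylase (1.59-fold, ZT0.228), were called among 7 of the aromatic pathways. Of 10 transporters 3 were called: the mitochondrial carrier Slc25a47 (7.04-fold, ZT8.24), the glutamine transporter Slc38a3 (2.04-fold, ZT10.6) and Slc3a2, the heavy chain of several amino acid exchangers (1.63-fold, ZT18.1). Of 7 further urea cycle and glutamate genes 0 had a called rhythm. Slc25a12, a mitochondrial aspartate and glutamate carrier, was 0.38 ± 0.11 higher in the dark (adjusted p = 0.0457 in limma).

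Of 16 measured regulators of these pathways 3 were rhythmic (18.8%, against 7.62% of all features). The glucocorticoid targets Fkbp5 (6.50-fold, ZT14.2) and Per1 (9.01-fold, ZT13.4) had earlier fitted peaks than Tat, a difference that was not tested, and the pseudokinase Trib3 peaked at ZT7.48 (1.61-fold). Hnf4a, Klf15 and Nr3c1, which encodes the glucocorticoid receptor, had no called rhythm (adjusted p = 0.0581, 0.0663 and 0.932 in limma).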

How the data were processed

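The deposited table gives an expression value, read here as log2, for each of 22206 features and 22 arrays. Per the labels' protocols, TRIzol served for extraction, and 100 ng of RNA a liver went into biotin labelling (WT Plus kit). Not given in the sources used here are the base of the logarithm, background correction, summarization, normalization and genome build. The values have no negatives and reach 19.87. The data have no detection calls. Arrays have no read depth, and their number limits the precision.

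Of the features 19572 had 1 symbol in the platform's annotation, 0 had several and 2634 had none. All 19572 gene IDs were found in the RefSeq table (GRCm38.p6), which changed 0 symbols. Models were fitted to all features with limma 3.58.1 in R 4.3.3 (lmFit, eBayes), tested beforehand on simulated data. Each array was taken as 1 mouse, so a p-value reflects the spread among these mice. Tests were the 24 h cosine and sine, any difference among the 6 times, and the mean of the dark times minus that of the light times, adjusted by Benjamini-Hochberg over all features. Genes named in full were those called in any test, those set apart in the arrays of high Tff3, the urea cycle enzymes, and rhythmic genes of the other lists. Further genes are given as examples. The members, lists and the arrays of high Tff3 were chosen with earlier results of these data known. The replicate letters were not taken to pair arrays. Alternatives were quantile normalization, centring on array medians, bright features alone, a trended robust prior, array weights, ranks, the replicate block, a stricter threshold, added 12 h terms, plain dark and light groups, and omission of single arrays or of the 5 with high Tff3.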

Additional observations from a re-analysis of the deposited data

Results flagged for a closer look

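Single arrays stood far from the other 3 of their time in 5 of 140 gene and time groups checked with Dixon's criterion, which flags about 5% of groups by chance. Dbt measured 12.45 in ZT22a, an array of high Tff3, and 12.11 to 12.13 in the others. Bckdha measured 11.48 in ZT14b, also of high Tff3, and 11.12 to 11.15 in the others. Hgd measured 16.06 in ZT10b and 16.36 to 16.41 in the others. Phgdh measured 3.79 in ZT2b against 3.38 to 3.41, and 3.81 in ZT14a against 3.48 to 3.53, at the level of background.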

How the results depend on the processing

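The 24 h rhythm was called for 7 to 10 of the 35 genes when single arrays were left out, any difference among the times for 6 to 11, higher in the dark for 5 to 7 and lower in the dark for 2 to 4, the 4 without ZT22a. With ranks the test among the times called 0 genes with limma (14 at an unadjusted p under 0.05, or 40%, against 20.2% of all features) and 0 of all features. With ranks, and with dark and light as 2 plain groups, 1 gene was lower in the dark, Amdhd1 being lost (adjusted p = 0.152 and 0.166); ranks also lost the dark and light calls of Afmid (0.0689) and Prodh (0.0811). Without the 5 arrays of high Tff3, 2 were higher and 4 lower in the dark. With the replicate block 8 genes were rhythmic and 6 differed among the times, Nags (adjusted p = 0.0568) and Tat (0.0646) being lost, and it changed no call of a dark and light difference; same-letter arrays deviated together in 3 of 51 pairs (correlation over 0.1), and 5 arrays correlated best with their own letter. The test among the times lost Tat without any 1 of 13 arrays (ZT2a, ZT2b, ZT2c, ZT2d, ZT10a, ZT10b, ZT10d, ZT14b, ZT14d, ZT18a, ZT18b, ZT18c, ZT22d) and Nags without any 1 of 6 (ZT10b, ZT10c, ZT10d, ZT14d, ZT22b, ZT22d). The dark and light call of Prodh was lost without any 1 of 11, with quantile normalization, and with 2 plain groups (adjusted p = 0.107 in limma). Quantile normalization and ranks also lost the rhythm call of Prodh. No direction of a called dark and light difference was reversed. Over all features, ranks gave 1065 rhythmic, 368 higher and 235 lower in the dark, a threshold of 0.01 gave 830 rhythmic, 668 differing among the times, 295 higher and 164 lower, omission of the 5 arrays gave 352 and 265, and plain groups 440 and 260. The cause was not tested.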
